A study of Mus musculus with 8 samples.

Results

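Genes that fetal liver expresses and postnatal liver silences, Afp, H19, Igf2, Gpc3, Dlk1 and Peg3, and a pair of repressors of that programme, Zhx2 and Zbtb20, were followed in liver of 5-week-old mice with and without Stab1. The 8 genes were found by symbol among the 19348 genes of the deposited table, where each stood on 1 row, and all 8 were among the 12338 genes with enough reads to be tested. The study set 5 libraries from mice labelled Stab1 knock-out against 3 from wild-type mice, to find how loss of stabilin-1, a clearance receptor of liver sinusoidal endothelium and of macrophage subsets, alters the liver transcriptome. The labels give no strain, sex, breeding scheme or type of Stab1 allele, and they do not say whether libraries came from separate animals, so every p-value measures the spread between libraries, which may be technical in part. In whole liver, fewer cells of a type and less RNA per cell cannot be told apart.

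Alpha-fetoprotein, the product of Afp, is the main plasma protein of the mouse fetus, and hepatocytes replace it with albumin, the product of the neighbouring gene Alb, after birth. H19, a long noncoding RNA made from the maternal allele, and Igf2, a growth factor gene expressed from the paternal allele, lie side by side and share enhancers. Gpc3 encodes glypican-3, a heparan sulphate proteoglycan of the cell surface, Dlk1 a transmembrane protein used as a marker of hepatoblasts, and Peg3 a paternally expressed zinc finger protein. Zhx2, a zinc finger and homeobox protein, was found through the persistence of alpha-fetoprotein in adult BALB/cJ mice and holds down Afp, H19 and Gpc3 after birth. Zbtb20, a BTB-domain zinc finger protein whose level rises in liver after birth, binds the Afp promoter and represses it.

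The stretches of 250 bases upstream of the RefSeq start (build GRCm38.p6) of Afp (chr5:90490464-90490713, plus strand) and of Gpc3 (chrX:52613975-52614224, minus strand) are shown 5′ to 3′ because repression of Afp has been studied at its promoter and because the pair of targets differ in it. Capitals mark matches, on either strand, to the half-site of the hepatocyte factor HNF1 (GTTAAT), the TATA box (TATAAA) and the GC box (CCGCCC).
Afp: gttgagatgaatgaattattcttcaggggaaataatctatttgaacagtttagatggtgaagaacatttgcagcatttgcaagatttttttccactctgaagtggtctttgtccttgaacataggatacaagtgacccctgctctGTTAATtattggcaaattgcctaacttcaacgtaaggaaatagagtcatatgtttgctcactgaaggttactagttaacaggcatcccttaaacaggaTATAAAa
Gpc3: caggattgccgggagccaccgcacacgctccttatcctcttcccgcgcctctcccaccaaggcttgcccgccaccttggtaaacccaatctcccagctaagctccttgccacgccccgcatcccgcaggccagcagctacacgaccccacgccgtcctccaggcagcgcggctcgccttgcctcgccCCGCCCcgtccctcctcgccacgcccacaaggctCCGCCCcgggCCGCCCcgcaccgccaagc
Afp had 1 HNF1 half-site, 105 to 100 bases before the start, and 1 TATA box, 7 to 2 bases before it, but no GC box and 1 CG dinucleotide. Gpc3 had 3 GC boxes and 25 CG dinucleotides, with neither of the other motifs. Of 32851 mouse promoters in the same table, 6.43% held the HNF1 half-site, 12.4% the TATA box and 32.7% the GC box, and the median number of CG dinucleotides was 6. Of the 8 genes, 6 had an entry. Igf2 had 4 entries with 1, 10, 22 and 6 CG dinucleotides, and Dlk1, Peg3 and Zbtb20 had 8, 8 and 3. A GC box stood in 2 of the 4 Igf2 entries, and Dlk1, Peg3 and Zbtb20 held none of the motifs. A match describes letters and not a bound site. Only the exact letters were searched, so variants of a site were not counted, and distances hold for the RefSeq start only.

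Libraries held 4.85 to 10.8 M counted reads, and knockout library 1 was the shallowest. Levels are given in CPM, reads per M of a library size corrected by edgeR's TMM factor. Stab1, which checks the labels, lay at 50.9 ± 4.52 CPM (SD, n = 3) with the gene intact. In the knockout libraries it lay at 1.22 ± 0.378 CPM (SD, n = 5), with every one below the wild-type range. Albumin mRNA was abundant in every library, at 46460 CPM in knockout library 1 and between 86530 and 130200 CPM in the others. Knockout library 1 also stood apart in genes that differ by sex. Xist, expressed in female cells, was at 0.586 CPM there and between 482.5 and 767.6 CPM elsewhere. Ddx3y, a Y-linked gene, had 320 reads there and at most 4 in any other library. Cyp4a12a, a male-predominant cytochrome P450, was at 284 CPM there against at most 0.635 CPM elsewhere. Its reads were thus those of male liver and those of the other libraries of female liver. Sex and other traits of knockout library 1 cannot be told apart. The comparison of each member is therefore given with and without this library, and other genes and lists are given with it unless stated. The median share of gene length covered by reads, taken over genes of 2000 to 4000 bases with 50 to 150 reads, was 64.8% to 65.8% in knockout libraries 2, 4 and 5. Next came wild-type library 3 at 66.9%, knockout library 3 at 67.8%, knockout library 1 at 68.7%, and it was highest in wild-type libraries 2 and 1, at 69.5% and 70%.

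Afp mRNA was at 67.5, 50.2, 75.3 and 95.6 CPM in knockout libraries 2 to 5 and at 31.4, 27.9 and 55.8 CPM in wild-type libraries 1 to 3. Knockout library 1 held 10 Afp reads, or 1.95 CPM with an exact Poisson 95% interval of 0.937 to 3.59 CPM, which covers counting error only. Wild-type library 3 was above knockout library 3, so the groups overlapped with and without knockout library 1, which lay 14.3-fold below the lowest other library. The log2 fold change of knockout over wild type was 0.61 (SE 0.73, edgeR adjusted p = 0.694) with all libraries and 0.90 (SE 0.27, adjusted p = 0.0968) without knockout library 1. Per 1000 reads of Alb, Afp had 0.780, 0.496, 0.783 and 0.922 reads in knockout libraries 2 to 5 and 0.241, 0.230 and 0.474 in wild-type libraries 1 to 3. Knockout library 1 had 0.0421. On this scale knockout libraries 2 to 5 all lay above the wild-type libraries, with knockout library 3 just above wild-type library 3, the reverse of their order in CPM, and the exact 95% intervals of these 2 libraries, 0.454 to 0.539 and 0.435 to 0.515, overlapped. Alb itself was lower, at 86530 to 103700 CPM in knockout libraries 2 to 5 and 117900 to 130200 CPM in wild-type libraries. Without knockout library 1, 18.2% of tested genes likewise had no overlap in either direction. The ratio therefore reflects Alb as well as Afp.

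H19 RNA was at 24.1, 18.0, 24.9 and 33.8 CPM in knockout libraries 2 to 5 and at 12, 8.74 and 21.8 CPM in wild-type libraries 1 to 3. Knockout library 1 had 0 H19 reads, which allows up to 3 reads or 0.586 CPM. The value of the lowest other library, its own counting error aside, was 14.9-fold above that limit. As for Afp, knockout library 5 was highest and wild-type library 3 lay inside the range of knockout libraries 2 to 5. The log2 fold change was 0.53 (SE 0.75, adjusted p = 0.743), and 0.82 (SE 0.31, adjusted p = 0.135) without knockout library 1.

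Afp and H19, which lie on different chromosomes, kept a nearly fixed proportion. In the 7 libraries other than knockout 1, H19 spanned 3.86-fold and Afp 3.43-fold, while the number of Afp reads per H19 read ran only from 2.56 in wild-type library 3 to 3.19 in wild-type library 2, a mean of 2.83 ± 0.219 (SD, n = 7). The exact 95% interval of each library's ratio held that mean, from 2.53 to 4.06 in wild-type library 2 and from 2.47 to 3.24 in knockout library 5. The ratio therefore did not differ detectably between these libraries at this depth. In knockout library 1, with 10 Afp and 0 H19 reads, it could not be measured.

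Igf2 mRNA was at 8.57, 4.52, 9.94 and 11.1 CPM in knockout libraries 2 to 5 and at 2.83, 2.76 and 7.90 CPM in wild-type libraries 1 to 3. Knockout library 1 had 3 reads, or 0.586 CPM (exact Poisson 95% interval 0.121 to 1.71). Reads of Igf2 can include those of the antisense gene Igf2os, since the strandedness of the libraries is not given in the sources used here. Its log2 fold change was 0.66 (SE 0.62, adjusted p = 0.623), and 0.92 (SE 0.41, adjusted p = 0.195) without knockout library 1. Igf2 reads per read of its neighbour H19 ran from 0.236 in wild-type library 1 to 0.400 in knockout library 4 (mean 0.321 ± 0.0596, SD, n = 7). The exact intervals of these ends, 0.153 to 0.354 and 0.312 to 0.510, overlapped.

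Dlk1 had few reads. There were 14, 12, 13 and 21 reads in knockout libraries 2 to 5, or 1.56, 1.13, 1.38 and 2.42 CPM, and 4, 5 and 15 reads in wild-type libraries 1 to 3, or 0.377, 0.460 and 1.5 CPM. Knockout library 1 had 0 reads, and at its depth the limit of 0.586 CPM lay above wild-type libraries 1 and 2, so a lower level was not detectable there. Once more wild-type library 3 lay among knockout libraries 2 to 5. The log2 fold change was 0.81 (SE 0.69, adjusted p = 0.584), and 1.05 (SE 0.50, adjusted p = 0.218) without knockout library 1. Meg3, the maternally expressed noncoding RNA beside Dlk1, chosen after its values were seen, did not share this pattern across the 7 libraries: it was at 2.83 to 5.68 CPM in knockout libraries 2 to 5, 3.0 to 3.58 CPM in wild-type libraries and 0.782 CPM in knockout library 1.

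**Figure D1:**
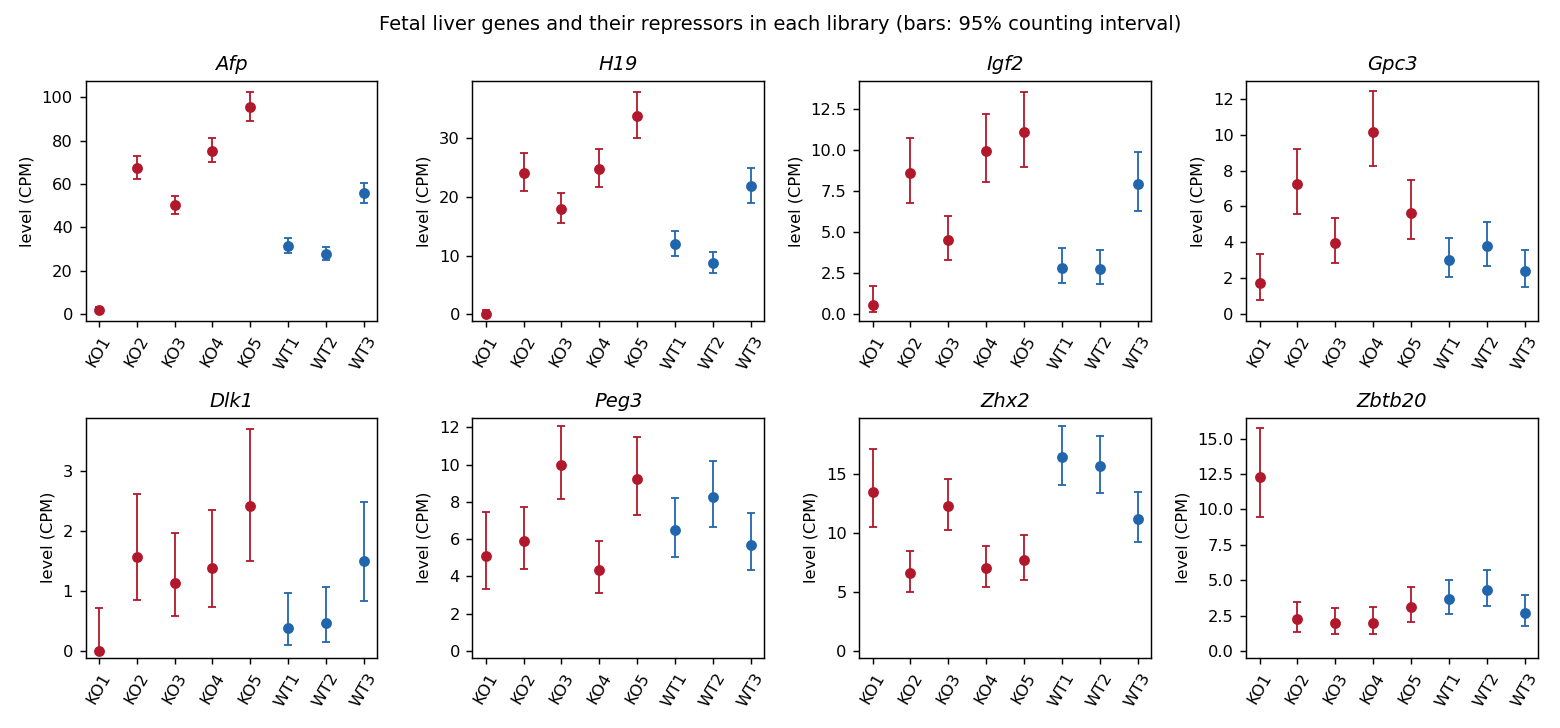
Level of each gene (vertical axes, CPM from 0) in knockout libraries 1 to 5 (KO, red) and wild-type libraries 1 to 3 (WT, blue); points are library values and bars exact 95% counting intervals. Afp, H19, Igf2 and Dlk1 share a profile in which KO5 is highest (95.6 CPM for Afp), WT3 lies above WT1 and WT2, and KO1 is at or near 0, while Zbtb20 peaks in KO1 at 12.3 CPM.

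**Figure D2:**
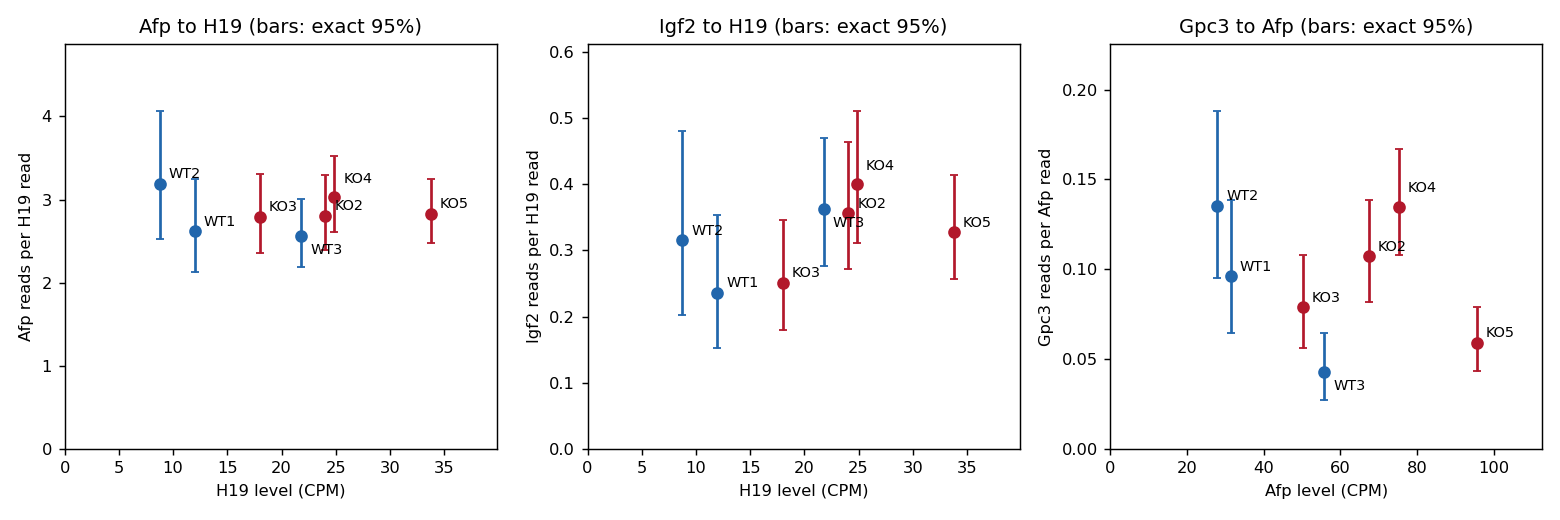
Reads of one gene per read of another (vertical axes) against the level of the gene in the denominator (horizontal axes, CPM) in the 7 libraries other than knockout 1; bars are exact 95% intervals, knockout red and wild type blue. The Afp to H19 ratio stays between 2.56 and 3.19 across the range of H19, whereas the Gpc3 to Afp ratio runs from 0.0430 to 0.135.

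Gpc3 mRNA was at 7.24, 3.96, 10.2 and 5.65 CPM in knockout libraries 2 to 5 and at 3.02, 3.77 and 2.40 CPM in wild-type libraries 1 to 3. Knockout library 1 was at 1.76 CPM, from 9 reads. Without that library the knockout values all lay above the wild-type values, by a small margin between knockout library 3 and wild-type library 2. With all libraries the groups of 0 of the 8 genes were without overlap (6.65% of tested genes were), and without knockout library 1 those of Gpc3 alone, 1 of 8 (18.2% of tested genes in either direction). Its log2 fold change was 0.93 (SE 0.44, adjusted p = 0.380), and 1.12 (SE 0.33, adjusted p = 0.0898) without knockout library 1.

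The order of libraries for Gpc3 was not that for Afp: wild-type library 3 was lowest of the 7, and Gpc3 reads per Afp read ranged 3.15-fold. Mesothelial markers were high in the same libraries as Gpc3. All 7 tested markers had positive log2 fold changes (median 1.01) with 0 called. Averaged over the tested markers, log2 CPM in knockout libraries 2 to 5 was 3.56, 2.29, 3.37 and 2.85. It was 1.87, 1.91 and 1.67 in wild-type libraries 1 to 3 and 1.76 in knockout library 1. None of the 9 markers was at 0 in all libraries, and Upk3b, a uroplakin of mesothelium, was at 3.58 to 11.3 CPM in knockout libraries 2 to 5 and 1.70 to 3.21 CPM in wild-type libraries. The summed level of the list was 242.3 to 306.2 CPM in knockout and 169.5 to 242.6 CPM in wild-type libraries, most of it from the keratin gene Krt8, which hepatocytes also express. The part of these cells in the level of Gpc3 was not tested. Reads of Gpc3 can include those of the overlapping gene A630012P03Rik.

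Peg3 differed from the other imprinted members. It was at 5.08, 5.90, 9.98, 4.34 and 9.22 CPM in knockout libraries 1 to 5 and at 6.51, 8.28 and 5.70 CPM in wild-type libraries 1 to 3. The groups overlapped throughout, and knockout library 1 was not apart. The log2 fold change was 0.03 (SE 0.29, adjusted p = 0.973), and 0.10 (SE 0.29, adjusted p = 0.844) without knockout library 1. Reads of Peg3 can include those of its antisense gene Peg3os.

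Zhx2 mRNA was at 13.5, 6.57, 12.2, 6.98 and 7.72 CPM in knockout libraries 1 to 5 and at 16.4, 15.7 and 11.2 CPM in wild-type libraries 1 to 3. Knockout libraries 2, 4 and 5 were low, wild-type libraries 1 and 2 high, and wild-type library 3 lay below knockout libraries 1 and 3, so the groups overlapped. The log2 fold change was -0.63 (SE 0.26, edgeR adjusted p = 0.350), and -0.78 (SE 0.24, adjusted p = 0.0997) without knockout library 1. Levels of its relatives were 42.1 to 48.0 CPM in knockout libraries 2 to 5 and 41.8 to 52.4 CPM in wild-type libraries for Zhx1 (log2 fold change -0.05, SE 0.13, without knockout library 1), and 15 to 24.3 against 15.2 to 34.6 CPM for Zhx3 (-0.32, SE 0.26). Neither passed the test.

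Zbtb20 mRNA was at 2.23, 1.98, 2.01 and 3.11 CPM in knockout libraries 2 to 5 and at 3.68, 4.33 and 2.70 CPM in wild-type libraries 1 to 3. Knockout library 1 was at 12.3 CPM, 2.85-fold above the highest other library, and also had almost no Afp and H19. As it was the only library with male reads, sex and Zbtb20 cannot be told apart there. With it the log2 fold change was 0.17 (SE 0.60, adjusted p = 0.901), and without it -0.63 (SE 0.27, adjusted p = 0.181), a change of sign that rests on this library. Zbtb20 overlaps several noncoding genes and Tigit, whose reads could not be set apart.

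Set per kilobase (RPKM, the CPM divided by gene length in kilobases), wild-type levels were 18.4 ± 7.30 for Afp, 5.42 ± 2.60 for H19, 3.28 ± 0.640 for Zhx2, 1.35 ± 0.303 for Gpc3, 1.13 ± 0.259 for Zbtb20, 1.11 ± 0.731 for Igf2, 1.03 ± 0.199 for Peg3 and 0.167 ± 0.134 for Dlk1 (SD, n = 3). Afp stood above H19 beyond the spread of the libraries, and Dlk1 stood below all others. H19 and Zhx2 overlapped, and so did Gpc3, Zbtb20, Igf2 and Peg3. In knockout libraries 2 to 5 the mean was 34.6 ± 9.02 for Afp, 9.62 ± 2.49 for H19, 2.97 ± 1.16 for Gpc3, 2.11 ± 0.708 for Igf2 and 1.91 ± 0.597 for Zhx2 (SD, n = 4), so that Zhx2 came after Gpc3 and Igf2 in order of mean level, within overlapping ranges.

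By genotype, none of the 8 genes passed an adjusted p of 0.05 in the edgeR fit of all libraries, in which 0.227% of tested genes did, and 1 of 8, Zhx2, had an unadjusted p under 0.05, against 13.6% of tested genes. DESeq2 also called 0 of 8 (0.746% of genes). Without knockout library 1 edgeR again called 0 of 8 (0.928% of tested genes), and 6 of 8 had an unadjusted p under 0.05, all but Dlk1 and Peg3, against 25.5% of tested genes. DESeq2 without that library, a setting chosen after seeing the data, called 2 of 8, Afp (log2 fold change 0.91, adjusted p = 0.0227) and Gpc3 (1.14, adjusted p = 0.0267), both higher in knockout liver, in a fit that called 6.10% of genes. The median log2 fold change of the 8 was 0.57, or 0.86 without knockout library 1, beside -0.01 and -0.02 over all tested genes. The 8 were chosen with earlier results of these data known and include the repressors, and Afp and H19 rose and fell together. They are thus not 8 separate occurrences, and the difference from all tested genes was not tested.

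Coverage along genes differed between the libraries. Without knockout library 1 its order was close to that of Zhx2 (rho = 0.96) and near the reverse of that of Afp (rho = -0.86). With the coverage of each library as a covariate, also chosen after seeing the data, edgeR called no gene of the 8. The log2 fold changes turned to -0.74 (SE 0.78) for Afp, -0.71 (SE 0.76) for H19, -0.70 (SE 0.46) for Igf2 and -0.40 (SE 0.66) for Dlk1. That of Gpc3 was 0.24 (SE 0.55), that of Zhx2 -0.10 (SE 0.16) and that of Zbtb20 0.99 (SE 0.54). With that covariate and without knockout library 1 they were 0.23 (SE 0.26) for Afp, 0.11 (SE 0.30) for H19, -0.21 (SE 0.33) for Igf2, 0.85 (SE 0.53) for Gpc3 and -0.13 (SE 0.21) for Zhx2. Coverage was lower in most knockout libraries, so with 8 libraries genotype and coverage could be told apart only in part.

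**Figure D3:**
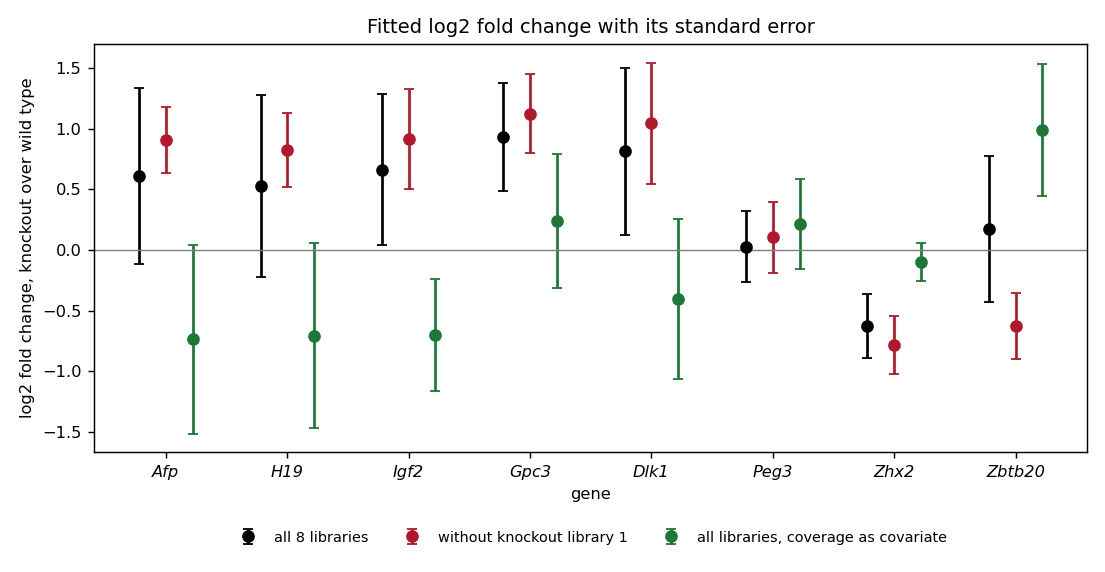
Fitted log2 fold change of knockout over wild type (vertical axis; bars are standard errors) for each gene from edgeR with all 8 libraries (black), without knockout library 1 (red) and with coverage as a covariate (green). Afp goes from 0.61 to 0.90 without that library and to -0.74 with the covariate, and Zhx2 is at -0.63, -0.78 and -0.10.

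Across libraries, low Zhx2 went with high Afp. Without knockout library 1, in a set of 15 relations chosen after seeing the data, log2 CPM of Zhx2 and Afp had r = -0.91 (n = 7, exact two-sided permutation p = 0.00635, adjusted p = 0.0313) and rho = -0.82 (exact p = 0.0341, adjusted p = 0.0853), and r was -0.99 without the 2 libraries farthest from the Zhx2 median. For H19 r was -0.86 (exact permutation p = 0.0109, adjusted p = 0.0327), for Igf2 -0.92 (exact p = 0.00833, adjusted p = 0.0313), for Dlk1 -0.84 (exact p = 0.0177, adjusted p = 0.0442), each with rho = -0.82 (adjusted p = 0.0853), and r ran from -0.97 to -0.95 without the same 2 libraries. For Gpc3 r was -0.81 (exact p = 0.0347, adjusted p = 0.0744; rho = -0.75), falling to -0.55, and for Peg3 it was 0.39 (exact p = 0.370, adjusted p = 0.396; rho = 0.43). By rank none of these relations passed the adjustment. The permutations ran across both genotypes. The group differences without knockout library 1, log2 fold changes of -0.78 for Zhx2 and 0.90 for Afp, therefore enter r and its p.

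The relation was not confined to these genes, since 6.63% of all tested genes had an r with Zhx2 as negative as that of Afp, 10.8% as that of H19 and 5.34% as that of Igf2. Zhx2 itself followed coverage (r = 0.98, exact permutation p = 3.97e-04, adjusted p = 0.00595; rho = 0.96, adjusted p = 0.0417; r = 0.96 without 2 libraries), as did Afp in the opposite direction (r = -0.92, exact p = 0.00496, adjusted p = 0.0313; rho = -0.86, adjusted p = 0.0853; r = -0.71 without 2 libraries). With 5 knockout and 3 wild-type libraries no correlation within a genotype is reported. The parts of genotype and of coverage in the relation were not tested.

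With all 8 libraries and the 4 targets that had at least 3 reads in each, 8 relations were computed, again across both genotypes. Zhx2 and Afp then had r = -0.55 (exact permutation p = 0.131, adjusted p = 0.174; rho = -0.81, exact p = 0.0218, adjusted p = 0.0871; r = -0.46 without the 2 farthest libraries). Zbtb20 had r = -0.93 with Afp (exact permutation p = 0.00930, adjusted p = 0.0434; rho = -0.62, exact p = 0.115, adjusted p = 0.153) and r = -0.88 with Igf2 (exact p = 0.0109, adjusted p = 0.0434; rho = -0.62). Both rested on knockout library 1, the only one with male reads. Without it and wild-type library 2, r was -0.36 and -0.35, and without knockout library 1 alone it was -0.63 and -0.59.

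**Figure D4:**
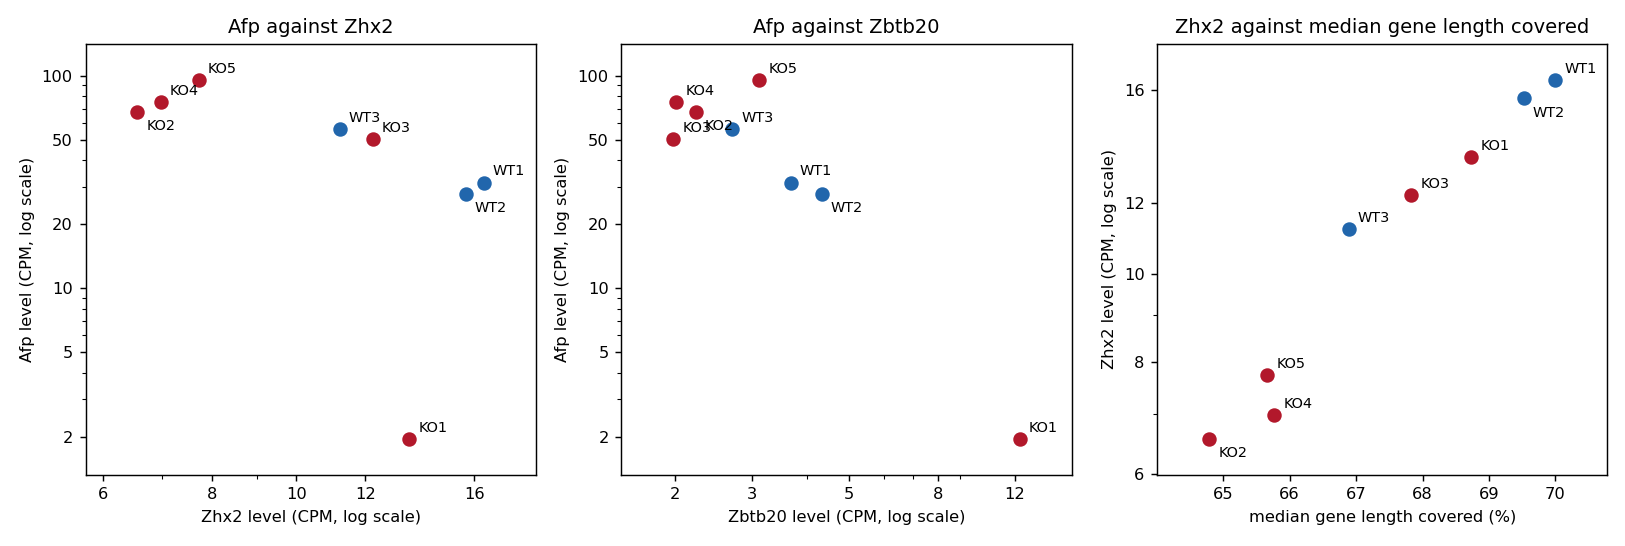
Afp level against Zhx2 and against Zbtb20 (log scales, CPM) and Zhx2 level (log scale, CPM) against the median share of gene length covered (%), 1 point per library, knockout red and wild type blue. Leaving KO1 aside, libraries with less Zhx2 have more Afp (r = -0.91 across both genotypes), KO1 alone carries the span of Zbtb20, and Zhx2 follows coverage.

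Of 13 entries in a list of the Zhx family and genes reported to depend on Zhx2, 4 of them members, 11 were tested, 0 were called, 7 had positive log2 fold changes and the median was 0.53. Lpl, lipoprotein lipase, which fetal liver expresses and adult liver silences, was at 112 to 159 CPM in knockout libraries 2 to 5, 51.3 to 96.1 CPM in wild-type libraries and 80.9 CPM in knockout library 1 (log2 fold change 0.85, SE 0.26, adjusted p = 0.325). Without knockout library 1 it was 0.97 (SE 0.23, adjusted p = 0.0723). Mup20, a male-predominant urinary protein gene, was at 3981 CPM in knockout library 1 and at 58.9 to 326.7 CPM elsewhere, and its reads can be shared with near-identical genes of its cluster. Without knockout library 1, 1 of the 11 genes was called, in a fit that called 0.928% of tested genes. This was Elovl3, a fatty acid elongase gene, chosen after its values were seen. Elovl3 was at 1.73 to 2.56 CPM in knockout libraries 2 to 5 and 4.90 to 10.8 CPM in wild-type libraries (log2 fold change -1.77, SE 0.29, edgeR adjusted p = 0.0261). It was at 181 CPM in knockout library 1, the only one with male reads. With that library its log2 fold change was 2.29 (SE 1.60, edgeR adjusted p = 0.503).

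The list of imprinted genes had 39 entries, of which 25 were tested, 4 of them members, with 0 called, 18 positive and a median log2 fold change of 0.09. The 4 with the smallest p were Mcts2 (0.64, SE 0.26, adjusted p = 0.343), Peg10 (-1.12, SE 0.49, adjusted p = 0.359), Slc22a18 (0.24, SE 0.13) and Cdkn1c, an inhibitor of cyclin-dependent kinases. Cdkn1c was at 5.61 to 6.69 CPM in knockout libraries 2 to 5, 2.30 to 3.60 CPM in wild-type libraries and 0.782 CPM in knockout library 1 (log2 fold change 1.03, SE 0.22, adjusted p = 0.0646 without that library). Knockout library 1 was the lowest of the 8 libraries in 13 of the 25 imprinted genes and in 5 of the 8 members, against 16.3% of tested genes. Beside H19, Igf2 and Dlk1 these included Meg3, Cdkn1c and Ndn, a neuronal growth suppressor gene (0.195 CPM there and 0.644 to 3.11 CPM elsewhere), named after their values were seen. Knockout library 1 was also the shallowest. Where other libraries lay below its limit of 3 reads or 0.586 CPM, as for Dlk1, being lowest does not show a lower level.

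In the albumin family, 0 of 4 genes were called and Afp alone was positive. Alb was at 86530 to 103700 CPM in knockout libraries 2 to 5, 46460 CPM in knockout library 1 and 117900 to 130200 CPM in wild-type libraries. Its log2 fold change was -0.50 (SE 0.23, edgeR adjusted p = 0.370), and -0.35 (SE 0.13, adjusted p = 0.132) without knockout library 1. Afm, afamin, had -0.57 with all libraries (SE 0.17, edgeR adjusted p = 0.305). Hepatocyte transcription factors that act on the Afp promoter and enhancers gave 0 calls among 14 tested and a median of -0.13. Nr5a2, a nuclear receptor, was at -0.49 (SE 0.20, adjusted p = 0.349), Prox1 at -0.62 (SE 0.27) and Hnf4a at -0.28 (SE 0.17). Further fetal or oncofetal genes gave 0 calls among 14 tested of 23 entries, with a median of 0.12 and 9 positive, which turned to -0.01 and 7 without knockout library 1. Hmga2 was at 3.60 to 5.23 CPM in knockout libraries 2 to 5, 2.76 to 3.60 CPM in wild-type libraries and 5.86 CPM in knockout library 1 (0.58, SE 0.24, adjusted p = 0.349), and Igf2bp2, an RNA-binding protein of Igf2 mRNA, at 0.72 (SE 0.35, adjusted p = 0.385).

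Among 13 tested genes of the IGF2 axis 0 were called, with a median of 0.08. Igfals, the acid-labile subunit, was at 113 to 182 CPM in knockout libraries 2 to 5, 163 CPM in knockout library 1 and 211 to 243 CPM in wild-type libraries. Its log2 fold change with all libraries was -0.51 (SE 0.17, edgeR adjusted p = 0.331). Igfbp6, a binding protein that prefers IGF2, was at 2.45 to 8.02, 1.17 and 1.32 to 2.40 CPM in the same order (1.47, SE 0.53, edgeR adjusted p = 0.333). Of the other glypicans, Gpc4 had -0.22 (SE 0.15), Gpc6 0.22 (SE 0.32) and Gpc1 -0.13 (SE 0.24), and 0 of these 3 were called. Postnatal hepatocyte genes gave 0 calls among 15 and a median of 0.10, with Cyp3a11 at 1.15 (SE 0.27, adjusted p = 0.238), Tat, tyrosine aminotransferase, at -1.0 (SE 0.26, adjusted p = 0.264) and Otc, a urea cycle enzyme, at 0.62 (SE 0.25). Knockout library 1 was lowest in 1 and highest in 2 of these 15 genes.

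Markers of red cells and of blood-forming cells, the latter of which fill the fetal liver, and of dividing cells also differed between these libraries. All 10 tested erythroid markers had positive log2 fold changes (median 0.93) with 0 called. Averaged over them, log2 CPM stood at 3.55, 3.16, 4.14 and 4.22 in knockout libraries 2 to 5, 2.62, 2.79 and 3.25 in wild-type libraries 1 to 3 and 2.51 in knockout library 1. The summed level of all 13 markers was 190.2 to 631.2 CPM in knockout and 151.2 to 190.4 CPM in wild-type libraries, and none was at 0 in all libraries. The globin gene Hbb-bs had more reads than any other of these markers, except in knockout library 1. There Alas2 had 787 reads and Hbb-bs 440, and the sum was 297.8 CPM. Of 10 tested dividing-cell markers, 0 had a positive log2 fold change, with a median of -1.04 and 0 called. Wild-type libraries 1 and 2 had the highest averages, 3.30 and 3.07 log2 CPM. Wild-type library 3, at 1.71, was within the knockout range of 1.51 to 2.40, and their summed level was 32.3 to 55.9 CPM in knockout and 35.2 to 106.5 CPM in wild-type libraries. The part of these cells in the levels of Afp and H19 was not tested. Of the remaining marker lists 0 genes were called, and the median log2 fold change was 0.01 for 6 hepatocyte, -0.37 for 13 stellate, 0.40 for 6 cholangiocyte, -0.23 for 8 sinusoidal endothelial and 0.26 for 7 Kupffer cell markers. Adipocyte and pancreas lists had 1 tested gene each, Cidec at -0.42 (SE 0.58) and Cela1 at 0.87 (SE 0.27).

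Over 8 libraries and 9194 genes with a mean of at least 5 CPM, the genes whose log2 CPM profile was most like that of Afp were H19 (r = 0.995), Slc4a1, the anion exchanger of red cells (0.992), and Cyp4a14, a fatty acid hydroxylase (0.987). For H19 they were Afp, Slc22a27 (0.993) and Cyp2b13 (0.992). The low values of knockout library 1, the only one with male reads, weigh on these, with Cyp2b13 at 0 reads and Slc4a1 at 0.195 CPM there. Sex and other traits of that library cannot be told apart in these matches. Without that library r with Afp was 0.987 for H19, 0.966 for Slc4a1 and 0.925 for Cyp4a14. With H19 it was 0.952 for Slc22a27 and 0.894 for Cyp2b13. For Zhx2 they were Arhgef18 (0.993), Eif4ebp2 (0.988) and Frs2 (0.986), with r of 0.993, 0.989 and 0.986 without knockout library 1.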

How the data were processed

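RNA from liver was sequenced in 5 Stab1 knock-out and 3 wild-type libraries. Per the file headers, the authors deposited, for each gene, counts of uniquely mapped reads, the percent of gene length covered and RPKM values. For aligner, counting tool, strandedness, genome build and annotation, nothing was given in the sources used here. Rows of the 113 gene identifiers that stood on several rows were summed, from 19464 rows to 19348 genes, and the deposited RPKM values equalled reads over length and library total. Counts were tested with edgeR 4.0.16 (quasi-likelihood test, TMM scaling, Benjamini-Hochberg adjustment over all tested genes, threshold 0.05) in R 4.3.3, after edgeR's filter on low counts, and the fit was tested on simulated data. Log2 CPM used a prior count of 2. Correlations used exact two-sided permutation tests in scipy 1.17.1. Intervals are exact at 95%, and a count of 0 allows up to 3 reads; both cover counting error only. Libraries of 4.85 to 10.8 M reads limit genes such as Dlk1 to 21 reads or fewer.

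The members and gene lists were chosen with earlier results of these data known. Named were all 8 members, Stab1, up to 4 genes per list by smallest p (a selection of these is printed) and the 3 genes most like Afp, H19 and Zhx2. Of 219 list entries 216 matched a gene. Alternatives were DESeq2 1.42.0, no filter on low counts, upper-quartile scaling, leaving out each library, and a replicate block. The coverage covariate, with and without knockout library 1, DESeq2 without that library and the correlations over 7 libraries were chosen after seeing the data. Replicate numbers were shared between the groups, but same-numbered libraries did not deviate together.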

Additional observations from a re-analysis of the deposited data

Results flagged for a closer look

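Knockout library 1 lay apart from the other 4 knockout libraries in Afp, H19, Zbtb20 and, by a value that rests on the prior count, Dlk1, with a gap to its nearest neighbour that took up more than 0.71 of the whole range of the group. Afp was at 1.12 log2 CPM there, and the gap was 0.831 of the range. H19 and Dlk1, both with 0 reads, were each at -2.215 log2 CPM, a value set by the prior count of 2, with gaps of 0.877 and 0.732 of the range. For Dlk1 this gap does not show a lower level, since the limit of 3 reads at this depth lay above wild-type libraries 1 and 2. Zbtb20 was high in the same library, at 12.3 CPM (gap 0.890 of the range) and 3.65 log2 CPM (gap 0.761 of the range). For Afp, H19 and Dlk1 the gap passed 0.71 of the range in log2 CPM only, and not in CPM. Chance gives such a gap in about 5% of groups, and these genes share the 1 library, so they are not separate occurrences. That library was also the only one with male reads.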

How the results depend on the processing

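The 28 genes called by edgeR became 130 with DESeq2, 17 with the coverage covariate, 17 with that covariate and without knockout library 1, 1057 with DESeq2 without knockout library 1, and 13 to 114 when 1 library was left out (114 if it was knockout library 1, and 15, 13 and 93 for wild-type libraries 1, 2 and 3). No member was called by edgeR in any of these. With DESeq2 without knockout library 1, Afp (0.91) and Gpc3 (1.14) were called. With the coverage covariate the log2 fold change turned to -0.74 (SE 0.78) for Afp, -0.71 (SE 0.76) for H19, -0.70 (SE 0.46) for Igf2 and -0.40 (SE 0.66) for Dlk1. Without knockout library 1 as well, it was -0.21 (SE 0.33) for Igf2 and -0.44 (SE 0.42) for Zbtb20. DESeq2 without that library put Zbtb20 at -0.62. Leaving out 1 library gave -0.15 to 0.18 for Peg3 and -0.63 to 0.37 for Zbtb20. The cause was not tested.

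The same replicate numbers did not pair the samples: same-numbered libraries had correlations of 0.124, -0.148 and -0.150 between their deviations from the group means, and not every library correlated best with its own number. The replicate block on libraries 1 to 3 of each group, where knockout library 1 is 1 of 3, called 8 genes, against 15 in the same libraries without a block, and gave -0.54 for Afp, -0.48 for H19 and -0.17 for Igf2, against 0.07, 0.03 and 0.09 without a block.

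When 1 library was left out, r of Zhx2 ran from -0.91 to -0.48 with Afp, -0.92 to -0.69 with Igf2, -0.84 to -0.72 with Gpc3 and -0.02 to 0.50 with Peg3. For Zbtb20 it ran from -0.97 to -0.63 with Afp, -0.94 to -0.59 with Igf2, -0.82 to -0.51 with Gpc3 and -0.50 to 0.30 with Peg3. The calls of Zbtb20 with Afp and Igf2 were lost without knockout libraries 1, 2 or 4 or wild-type libraries 1 or 2, where the test has fewer libraries.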
